A study of Mus musculus with 4 samples.

Results

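The genes of mitosis, the spindle and chromosome segregation were examined in mouse 3T3-L1 cells treated with risperidone, an atypical antipsychotic used against schizophrenia. The 47 genes were taken by symbol from the 16051 genes of the deposited expression table, and all 47 were found there. They fall into 9 functional groups, which are 12 kinases and cyclins, 5 spindle checkpoint genes, 4 genes of anaphase onset, 7 of the kinetochore and chromosomal passenger complex, 6 kinesins, 2 of spindle assembly, 5 condensin subunits, 2 of the chromosome surface and topology and 4 of cytokinesis. The rule is a list of symbols and uses no measured value, but the list was chosen with earlier results of these data known.

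3T3-L1 is an established fibroblast line from Swiss mouse embryos that can be turned into fat cells with a hormone cocktail. Per the study's methods, cells were differentiated over 6 days and given DMSO, the solvent control, or 100 µM risperidone for 48 h, and each of the 2 libraries per treatment held RNA pooled from 3 cultures. The labels give the NIH SWISS strain and the cell type as 3T3-L1 murine adipocytes for all 4 libraries, call the control "untreat" and the tissue embryonic, and name retina in the extraction protocol. The study does not mention retina.

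The libraries held 15883712 to 16374119 counts. The label of adipocytes was met only in part. Lpl, the lipoprotein lipase gene, had 11967 to 15569 counts and Fabp4, a fatty acid carrier of fat cells, 492 to 1360, whereas Adipoq, the adiponectin gene, and Retn had at most 1 count in every library, and Cfd, Cidec, Cebpa and Plin1 had 0 to 14. The sum of 10 adipocyte markers was 378 and 432 FPKM (fragments per kilobase of transcript, scaled to the library's mapped fragments) with DMSO. With risperidone it was 266 and 277 FPKM. Of the 10, 6 averaged under 1 FPKM, and Lpl, Fabp4, Pparg and Cd36 were above that. Of these 4, edgeR called 2 lower, Fabp4 and Lpl, and 0 higher, beside 32.2% and 32.1% of all genes tested. Pparg and Cd36 did not pass. Fabp4 was at 130.09 and 168.66 FPKM with DMSO and 59.51 and 71.18 FPKM with risperidone. The second risperidone library stood apart, because 15 kidney markers summed to 207 FPKM in it and to 1.88 to 2.77 FPKM in the other 3. Of 9 blood and immune markers, the 8 in the table summed to 2.84 and 4.05 FPKM with DMSO and 6.68 and 10.5 FPKM with risperidone. Most of that was Cd68, a lysosomal protein gene of macrophages, at 2.64 and 3.5 FPKM with DMSO and 6.34 and 6.7 FPKM with risperidone, while Ptprc, Cd3e and Cd79a were at 0 to 0.05 FPKM. The haemoglobin genes Hba-a1, Hba-a2 and Hbb-bs were at 0 in the other 3 libraries and at 1.97, 0.77 and 0.61 FPKM in risperidone replicate 2. The sum of 8 fibroblast and preadipocyte markers was 2830 to 3080 FPKM in all libraries, but its members moved apart. By edgeR, Dlk1 (log2 fold change 1.52), Thy1 (1.05) and Col1a1 (0.99) were higher with risperidone, Pdgfrb (-0.50) and Col1a2 (-0.16) were lower, and Pdgfra, Vim and Fn1 did not pass. Results are therefore given with and without that library. The part of these marker levels in the results below was not tested.

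A dividing cell is driven into mitosis by the kinase Cdk1 bound to cyclin B, after the phosphatase Cdc25 has removed inhibitory phosphates from it. Condensin and topoisomerase II compact and untangle the chromosomes, kinesins and microtubule binding proteins build the spindle, and the kinetochores join each chromosome to it. The spindle checkpoint holds the anaphase-promoting complex (APC/C) inactive until all chromosomes are attached, after which the APC/C has securin and cyclin B degraded, separase cuts cohesin and the cell divides by cytokinesis. Most of these genes are transcribed late in the cell cycle, through a promoter element called the CHR, bound by the DREAM and MuvB complexes, and through CCAAT boxes bound by NF-Y. 3T3-L1 cells re-enter the cell cycle for a short time when differentiation is induced and leave it as they mature.

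The promoters of the genes are shown first, since these elements are what many of the 47 share in sequence. RefSeq promoters (GRCm38.p6, from 250 bases before the transcription start to 50 after it) were matched for 40 of the 47 genes. Ccna2, Cdc25c, Aurkb, Incenp, Kif20a, Tpx2 and Smc4 had no entry. The 100 bases before the start are printed for Cdk1, Top2a and Cdc20, which were higher with risperidone, for Kif11, which was too low to be tested, and for Plk4, which was higher although its promoter held neither element. Each is written 5′ to 3′ on the strand of the gene, and capitals mark the CHR (TTTGAA, or TTCAAA on the other strand) and the CCAAT box (CCAAT, or ATTGG on the other strand).
Cdk1, chr10:69352913-69353012, minus strand: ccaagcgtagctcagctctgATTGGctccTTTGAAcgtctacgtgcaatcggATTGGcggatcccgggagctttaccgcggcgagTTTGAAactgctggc
Top2a, chr11:99024190-99024289, minus strand: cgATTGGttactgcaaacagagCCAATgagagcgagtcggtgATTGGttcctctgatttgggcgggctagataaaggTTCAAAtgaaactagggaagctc
Cdc20, chr4:118437344-118437443, minus strand: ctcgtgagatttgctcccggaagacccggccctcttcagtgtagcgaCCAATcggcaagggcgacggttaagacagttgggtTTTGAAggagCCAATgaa
Kif11, chr19:37376282-37376381, plus strand: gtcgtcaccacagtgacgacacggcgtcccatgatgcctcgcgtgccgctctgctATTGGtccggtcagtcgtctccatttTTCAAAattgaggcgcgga
Plk4, chr3:40799851-40799950, plus strand: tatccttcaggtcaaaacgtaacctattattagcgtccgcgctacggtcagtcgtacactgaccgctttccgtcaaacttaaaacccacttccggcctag

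The CHR was found on either strand in the promoters of 28 of the 40 genes (70.0%), and in 20.2% of the 27025 genes with a RefSeq promoter and 13.7% of the 8329 tested genes with one. The CCAAT box was found in 30 of the 40 (75.0%), against 41.1% of all genes and 43.9% of those tested. Both were found in 25 (62.5%), against 7.97% and 5.73%, and matches of the 2 elements overlapped in 0 of the 40 genes. Within 50 bases of the start on either side, 25 genes (62.5%) held a CHR, against 5.72% of all genes. In the promoters printed, Cdk1 held a CHR starting at 15 and at 71 bases before the start, Top2a at 23, Kif11 at 19 and Cdc20 at 18. A CHR was found in 8 of 13 genes (61.5%) that were higher with risperidone and had a promoter entry, in 7 of 9 (77.8%) that did not pass the test, in 12 of 17 (70.6%) that were not tested, and in Smc2, the 1 lower gene with an entry. These matches are letters in a window, not measured binding.

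**Figure D1:**
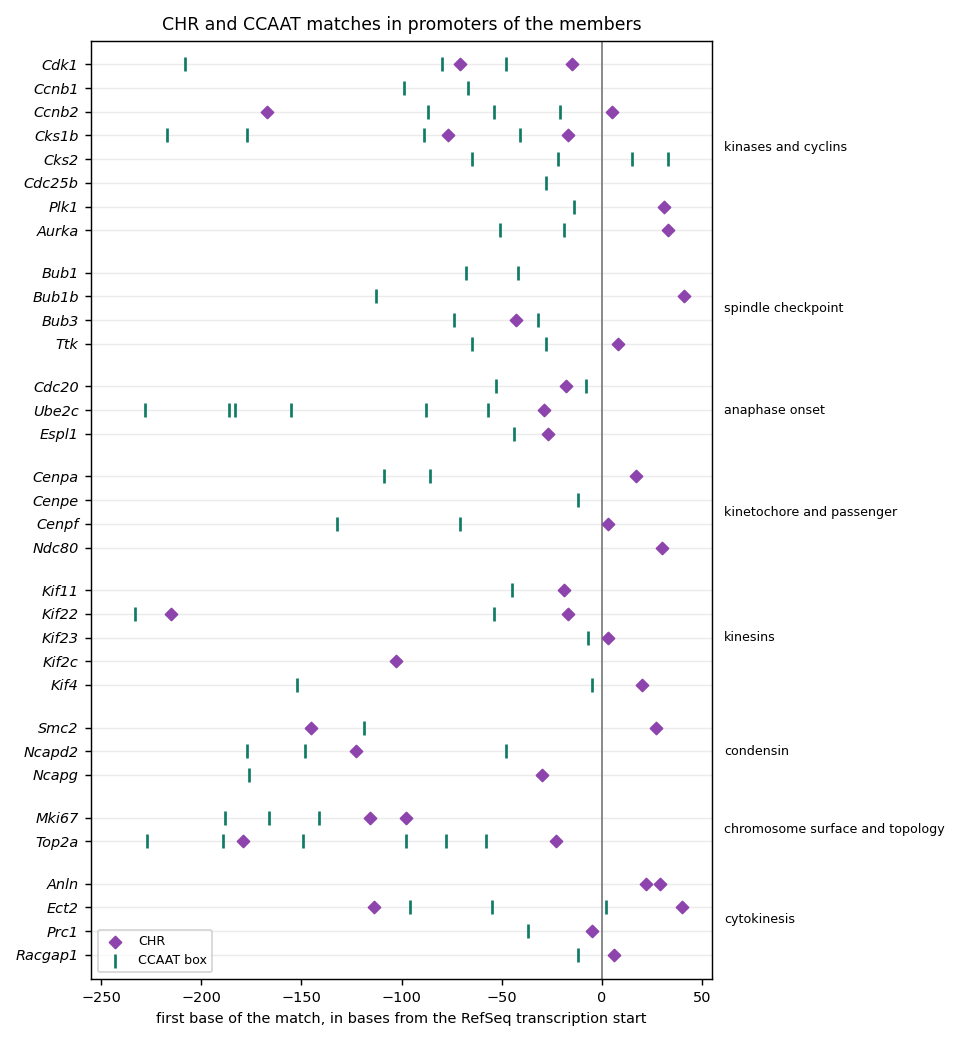
Matches to the CHR (purple diamonds) and the CCAAT box (green bars) on either strand in the promoters of the members with a match, by the first base of the match in bases from the RefSeq transcription start (the first promoter of a gene where there were more). Most CHR matches sit close to the start, and the CCAAT boxes mostly before it.

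Most of the 47 genes averaged under 5 FPKM over the 4 libraries, as the plot of FPKM by library shows. The mean over the libraries ran from 0.133 FPKM for Cenpf, a kinetochore gene, to 33.1 FPKM for Cks1b, a small subunit of cyclin-dependent kinases. The median of the 47 was 1.36 FPKM, and 9 of the 47 reached 5 FPKM. Cks1b (34.8 ± 4.04 FPKM, SD, n = 2, with DMSO), the checkpoint gene Bub3 (32.2 ± 0.537 FPKM) and the condensin ATPase Smc4 (21.7 ± 0.608 FPKM) were highest, and the difference between Cks1b and Bub3 was within the spread of Cks1b. Next came Cks2 at 13.1 ± 0.877 FPKM, Tpx2 at 8.3 ± 0.424 FPKM and Pttg1 at 8.2 ± 0.728 FPKM, of which the last 2 did not differ beyond their spread. The proliferation marker Mki67 was at 0.96 and 0.88 FPKM with DMSO and at 0.97 and 1.25 FPKM with risperidone. Summed over the 47, the level was 180.0 and 187.0 FPKM with DMSO and 217.0 and 212.0 FPKM with risperidone. In RNA from whole cultures, more dividing cells and more of these RNAs per cell cannot be told apart.

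**Figure D2:**
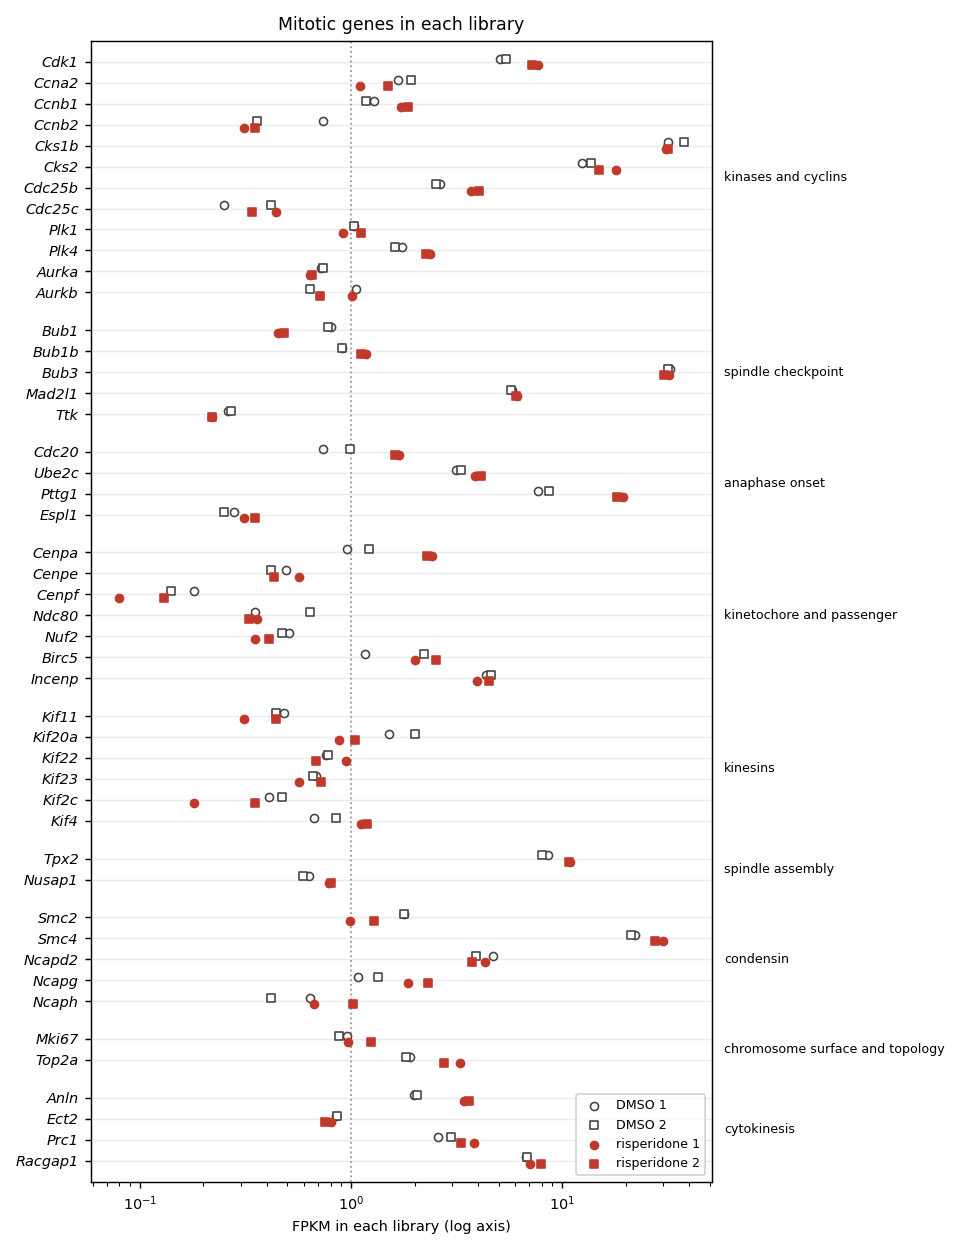
FPKM of the 47 genes in each of the 4 libraries on a log axis, by functional group, with DMSO as open and risperidone as filled symbols (circles, replicate 1, squares, replicate 2), and a dotted line at 1 FPKM. Cenpf is the lowest gene and Cks1b the highest, and for Pttg1, Cenpa and Cdc20 both risperidone points lie well to the right of the DMSO points.

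Risperidone was compared with DMSO by edgeR's quasi-likelihood F-test on the counts, with Benjamini-Hochberg adjustment over the 10243 genes whose FPKM averaged 1 or more, and a threshold of 0.05. Of the 47 genes, 28 passed that filter, of which 15 were higher with risperidone, 2 were lower and 11 did not pass the test. Among all genes tested, 32.1% were higher and 32.2% lower, so 64.3% were called in either direction, beside 60.7% of the 28. The share of genes called was thus near that of all genes, whereas 88.2% of the called mitotic genes were higher. Their median log2 fold change was 0.45, and that of all genes tested 0.000442. The 15 rose 1.2-fold to 2.51-fold. Without risperidone replicate 2, 13 were higher and 3 lower with a median of 0.50, beside 32.3% and 32.7% of all genes.

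The 19 genes under the filter had 7 to 71 counts in a library. Fitted without the filter, all 47 genes gave 14 higher and 3 lower with a median log2 fold change of 0.26, beside 18.4% and 19.3% of all 16021 genes fitted. Without risperidone replicate 2 as well, that fit gave 13 higher and 1 lower, beside 19.5% and 17.7%. Both risperidone libraries lay above both DMSO libraries for 24 of the 47 and below both for 8, beside 33.2% and 32.5% of all genes. Here and below, whether the treatments overlap was judged on CPM (counts scaled to library size) with TMM factors. The filter on the mean of all libraries let in 3 genes that were under 1 FPKM with DMSO, which were Bub1b, Cdc20 and Mki67, and 1 that was under it with risperidone, Kif20a.

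**Figure D3:**
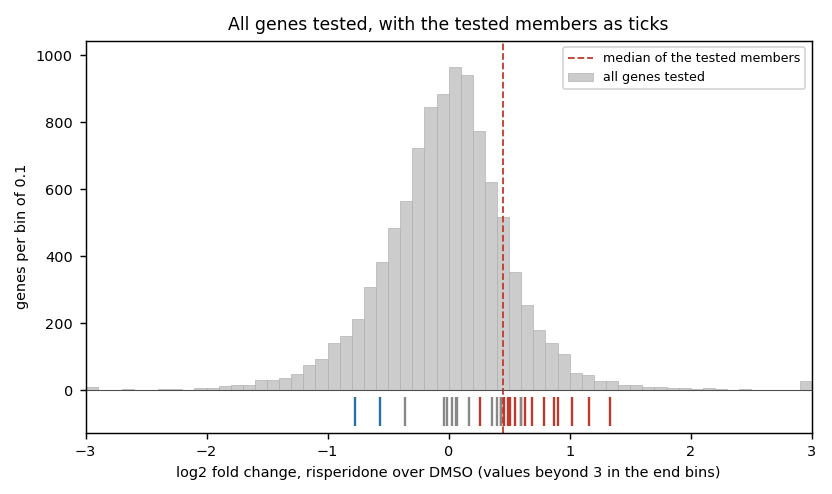
Histogram of the log2 fold change, risperidone over DMSO, of the 10243 genes tested (grey bars, genes per bin of 0.1), with the 28 tested mitotic genes as ticks below it (red higher, blue lower, grey not past the threshold) and their median of 0.45 as a dashed line. The histogram is centred near 0 and most ticks lie to its right.

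The split between directions was also read under other settings. With limma on log2(TPM + 1), where TPM is a level per length whose total is set equal between libraries, the median over all genes moved to -0.22 and 22.5% of all calls were higher instead of 49.9%. On that scale 10 mitotic genes were higher and 5 lower, so 66.7% of the called ones were higher, and 24 of the 28 lay above the median of all genes, compared with 23 in the count test. That setting changed the test, the unit and the scaling together. With the same count test scaled by library size only, 13 mitotic genes were higher and 2 lower (86.7% of those called higher), beside 37.9% of all calls.

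Among the kinases and cyclins, 5 of 8 tested genes were higher (62.5%, beside 32.1% of all genes) and 0 lower (beside 32.2%) by edgeR, as at an unadjusted p under 0.05, and DESeq2 called 2 higher and 0 lower. Cdc25b, a phosphatase that activates Cdk1, had 127 and 119 counts with DMSO and 178 and 193 with risperidone. Cdk1 itself, the kinase that drives mitosis, had 226 and 235 counts with DMSO and 343 and 313 with risperidone. Ccnb1, the cyclin B1 partner of Cdk1, had 46 and 41 counts with DMSO and 61 and 65 with risperidone. For all 3 genes both risperidone libraries were above both DMSO libraries, beside 33.2% of all genes. Of the 12 genes in the group, 5 lay above both DMSO libraries and 2 below both. The log2 fold change was 0.69 ± 0.137 (SE) for Cdc25b, with an adjusted p of 0.00116 by edgeR. For Cdk1 it was 0.60 ± 0.1, with an adjusted p of 0.00032 by edgeR. Ccnb1 changed as much, by 0.63 ± 0.213, but on few counts and with an adjusted p of 0.0234 by edgeR. Without risperidone replicate 2 the value was nearly as large, 0.58, with an adjusted p of 0.0538 by edgeR.

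Plk4, the kinase that starts centriole duplication, rose by 0.55 ± 0.156 on the log2 scale, from 98 and 88 counts to 131 and 125. The Cdk subunit Cks2 had 114 and 122 counts with DMSO and 164 and 135 with risperidone (log2 fold change 0.43, adjusted p = 0.0299 by edgeR), whereas its relative Cks1b had 325 and 373 counts with DMSO and 316 and 319 with risperidone (-0.04 ± 0.0954). The call of Cks2 was lost in 8 of 17 alternatives, among them DESeq2 (adjusted p = 0.107). With offsets for gene length Cks2 was at 0.21 and did not pass, and Cks1b was called lower at -0.24 (adjusted p = 0.0373 by edgeR). The difference between the 2 genes was not tested. Ccna2, the cyclin A gene of S phase and mitotic entry, had 73 and 82 counts with DMSO and 48 and 65 with risperidone. Both risperidone libraries were below the DMSO ones, yet its log2 fold change of -0.36 ± 0.217 did not pass (adjusted p = 0.165 by edgeR). Without risperidone replicate 2 it was -0.60, with an adjusted p of 0.0353 by edgeR, and without risperidone replicate 1 it was -0.15. Plk1, the kinase of spindle assembly and mitotic exit, had 35 and 34 counts with DMSO and 31 and 37 with risperidone, so the treatments overlapped.

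The remaining 4 genes of the group were under the filter. Aurka, the spindle pole kinase, was at 21 and 21 counts with DMSO and 18 and 18 with risperidone. Aurkb, the kinase of the passenger complex, Ccnb2, the cyclin B2 gene, and Cdc25c, another Cdk1 phosphatase, overlapped between treatments at 7 to 32 counts. The group's count of higher genes rested on single libraries, as it was 3 without DMSO replicate 1, where Ccnb1 and Cks2 were lost, and 2 without DMSO replicate 2, where Plk4 was lost too.

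None of the 3 tested spindle checkpoint genes passed the test, beside 64.3% of all genes called in either direction. The count was 0 in either direction by edgeR, at an unadjusted p under 0.05 as well, and 0 by DESeq2. On log2(TPM + 1), where the median of all genes was -0.22, limma called Bub3 lower at -0.18 (adjusted p = 0.0205). Bub3, the adaptor that brings Bub1 and BubR1 to the kinetochore, had 1031 and 977 counts with DMSO and 1015 and 949 with risperidone, and its log2 fold change was 0.06 ± 0.064. Of the 28 tested genes only Smc4 and Tpx2 had a smaller standard error. Mad2l1, the Mad2 gene whose product inhibits Cdc20, had 143 and 138 counts with DMSO and 150 and 146 with risperidone (0.17 ± 0.137). Bub1b, the gene of BubR1, had 53 and 51 counts with DMSO and 68 and 63 with risperidone. Its libraries did not overlap, and its log2 fold change was 0.43 ± 0.202 with an adjusted p of 0.0855 by edgeR. Of the 2 checkpoint kinases under the filter, Bub1 had 55 and 52 counts with DMSO and 31 and 32 with risperidone, and the fit without a filter gave it a log2 fold change of -0.67 (adjusted p = 0.0473 by edgeR), which without risperidone replicate 2 stayed at -0.67 but did not pass (adjusted p = 0.0701 by edgeR). Ttk, the Mps1 kinase gene, had 9 to 12 counts.

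The genes of anaphase onset held the largest rise of the 47. Pttg1 (NCBI Gene 30939, chr11:43420244-43427463 in GRCm38.p6), the gene of securin, which restrains separase until anaphase, had 77 and 81 counts with DMSO and 189 and 183 with risperidone. Its level went from 8.2 ± 0.728 to 18.9 ± 0.799 FPKM (SD, n = 2), and the log2 fold change was 1.33 ± 0.147, a 2.51-fold rise (adjusted p = 1.69e-05 by edgeR). Cdc20, the APC/C activator that the checkpoint inhibits, had 20 and 26 counts with DMSO and 45 and 43 with risperidone. It rose 2.03-fold (log2 fold change 1.02 ± 0.271, adjusted p = 0.00651 by edgeR), though without DMSO replicate 1 the call was lost at a log2 fold change of 0.83. Ube2c, the ubiquitin-conjugating enzyme of the APC/C, had 41 and 42 counts with DMSO and 50 and 53 with risperidone, and its log2 fold change of 0.40 ± 0.224 did not pass. Espl1, the separase gene, stayed under the filter with 30 and 26 counts with DMSO and 33 and 38 with risperidone. In all 4 genes both risperidone libraries were above both DMSO libraries, beside 33.2% of all genes.

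Of the kinetochore and passenger genes, 1 of 3 tested was higher (33.3%), near the 32.1% of all genes. Cenpa (NCBI Gene 12615, chr5:30666877-30674837), the gene of the histone variant that marks the centromere, had 21 and 26 counts with DMSO and 53 and 46 with risperidone, a 2.24-fold rise (log2 fold change 1.16 ± 0.263, adjusted p = 0.00258 by edgeR). Birc5, the survivin gene of the passenger complex, had 24 and 39 counts with DMSO and 42 and 48 with risperidone. Its DMSO libraries differed widely, and its log2 fold change of 0.60 ± 0.288 did not pass (adjusted p = 0.0872 by edgeR) but passed without DMSO replicate 2, at 1.02, and was 0.28 without DMSO replicate 1. Incenp, the scaffold of the same complex, had 216 and 223 counts with DMSO and 199 and 222 with risperidone, and its treatments overlapped. The other 4 were under the filter. Of them, Cenpe, a kinetochore motor, Cenpf and Ndc80, a microtubule binding subunit of the outer kinetochore, overlapped between treatments. Nuf2, the partner of Ndc80, had 17 and 15 counts with DMSO and 12 and 13 with risperidone.

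Kif20a was the only kinesin of the 6 that passed the filter. It codes for a motor of the central spindle and had 82.87 and 105.99 counts with DMSO and 48.15 and 55.95 with risperidone. Its level fell from 1.76 ± 0.339 to 0.96 ± 0.113 FPKM (SD, n = 2), with a log2 fold change of -0.77 ± 0.211 (adjusted p = 0.00803 by edgeR). Without DMSO replicate 2 the log2 fold change was -0.56 and no longer passed. Kif4, a chromosome-bound kinesin, had 46 and 48 counts with DMSO and 66 and 67 with risperidone, and the fit without a filter gave 0.59 with an adjusted p of 0.0408 by edgeR, and without risperidone replicate 2 it was 0.60 and did not pass (adjusted p = 0.0602 by edgeR). Kif2c, a microtubule depolymerase, had 18 and 20 counts with DMSO and 8 and 15 with risperidone. Kif11, which pushes the spindle poles apart, Kif22, a chromosome arm motor, and Kif23, a motor of the central spindle, overlapped between treatments at 21 to 38 counts.

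The Kif20a counts were not whole numbers. Estimated counts need not be whole where reads are divided between genes. Kif20a shares 4930 bases with Cdc23, an APC/C subunit gene, and the summed counts of the pair came to 780, 760, 1034 and 977, whole in 4 of 4 libraries within 0.02. Cdc23 had 697.13 and 654.01 counts with DMSO and 985.85 and 921.05 with risperidone, a log2 fold change of 0.59 opposite in sign to that of Kif20a. How reads of the shared stretch were divided bears on both values, so the fall of Kif20a is uncertain.

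Of the 2 genes of spindle assembly, Tpx2, which activates Aurora A and nucleates microtubules near chromosomes, had 445 and 412 counts with DMSO and 568 and 537 with risperidone. It rose by 0.46 ± 0.0635 on the log2 scale (adjusted p = 8.37e-05 by edgeR). Nusap1, a microtubule bundling protein gene, had 24 and 21 counts with DMSO and 32 and 28 with risperidone and was under the filter. Both genes were higher in both risperidone libraries than in both DMSO libraries, beside 33.2% of all genes.

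The condensin subunits moved in both directions. Smc4 (NCBI Gene 70099, chr3:69004738-69034623), an ATPase of the complex and the member with the most counts, had 1429 and 1334 with DMSO and 1931 and 1744 with risperidone. Its partner ATPase Smc2 (NCBI Gene 14211, chr4:52439221-52488365) had 157 and 153 counts with DMSO and 86 and 110 with risperidone. The libraries did not overlap for either gene, beside 33.2% of all genes above both DMSO libraries and 32.5% below both. Smc4 rose from 21.7 ± 0.608 to 28.8 ± 1.74 FPKM (log2 fold change 0.51 ± 0.0583, adjusted p = 2.28e-05 by edgeR). Smc2 fell from 1.79 ± 0.00707 to 1.14 ± 0.205 FPKM (log2 fold change -0.57 ± 0.164, adjusted p = 0.0106 by edgeR), and without risperidone replicate 2 the value was -0.76. Smc2 and Smc4 form a pair in every condensin complex, and their levels per length were far apart with both treatments.

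Ncapg, a HEAT repeat subunit of condensin I, had 63.17 and 75.98 counts with DMSO and 108.19 and 129.94 with risperidone (log2 fold change 0.87 ± 0.189, adjusted p = 0.00199 by edgeR). It shares 3367 bases with Lcorl, which had 258.83 and 289.02 counts with DMSO and 653.81 and 603.06 with risperidone (1.29 ± 0.0779). The summed counts of the pair came to 322, 365, 762 and 733, again whole in 4 of 4 libraries. Both genes had higher counts, but how shared reads were divided bears on the value for Ncapg, so its rise is uncertain too. Ncapd2, another subunit of condensin I, had 340 and 273 counts with DMSO and 310 and 259 with risperidone and overlapped. Ncaph, the kleisin subunit, was under the filter at 27 and 17 counts with DMSO and 28 and 42 with risperidone.

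Top2a, the topoisomerase that untangles sister chromatids, had 157 and 147 counts with DMSO and 269 and 223 with risperidone. The log2 fold change was 0.79 ± 0.133 (adjusted p = 0.000364 by edgeR), and 0.91 without risperidone replicate 2. Mki67, whose product coats mitotic chromosomes, had 146 and 133 counts with DMSO and 145 and 190 with risperidone. In CPM these were 8.67 and 8.11 with DMSO and 9.28 and 12.3 with risperidone, so both risperidone libraries lay above, the second, with the kidney markers, farther. The log2 fold change of Mki67 was 0.36 ± 0.161 (adjusted p = 0.0713 by edgeR), 0.15 without that library and 0.54, past the threshold, without risperidone replicate 1.

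All 3 tested genes of cytokinesis were higher by edgeR, beside 32.1% of all genes, and DESeq2 called 1 of them, Anln. Anln, the anillin gene, which links actin, myosin and septins in the cleavage furrow, had 166 and 142 counts with DMSO and 243 and 296 with risperidone, and a log2 fold change of 0.90 ± 0.139 (adjusted p = 0.000191 by edgeR). Prc1, which bundles the microtubules of the central spindle, had 121 and 128 counts with DMSO and 176 and 153 with risperidone (0.49 ± 0.145, adjusted p = 0.0115 by edgeR). Racgap1, a GTPase activator of the central spindle, had 311 and 303 counts with DMSO and 324 and 365 with risperidone. Its log2 fold change of 0.26 ± 0.0909 was the smallest among the called genes (adjusted p = 0.0267 by edgeR) and was 0.17 with an adjusted p of 0.176 by edgeR without risperidone replicate 2. Without DMSO replicate 1 only Anln of the 3 passed. Ect2, an exchange factor that acts at the cleavage site, overlapped between treatments at 47 to 54 counts. Prc1 shares 21669 bases with Rccd1, which had 38 and 42 counts with DMSO and 66 and 52 with risperidone.

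**Figure D4:**
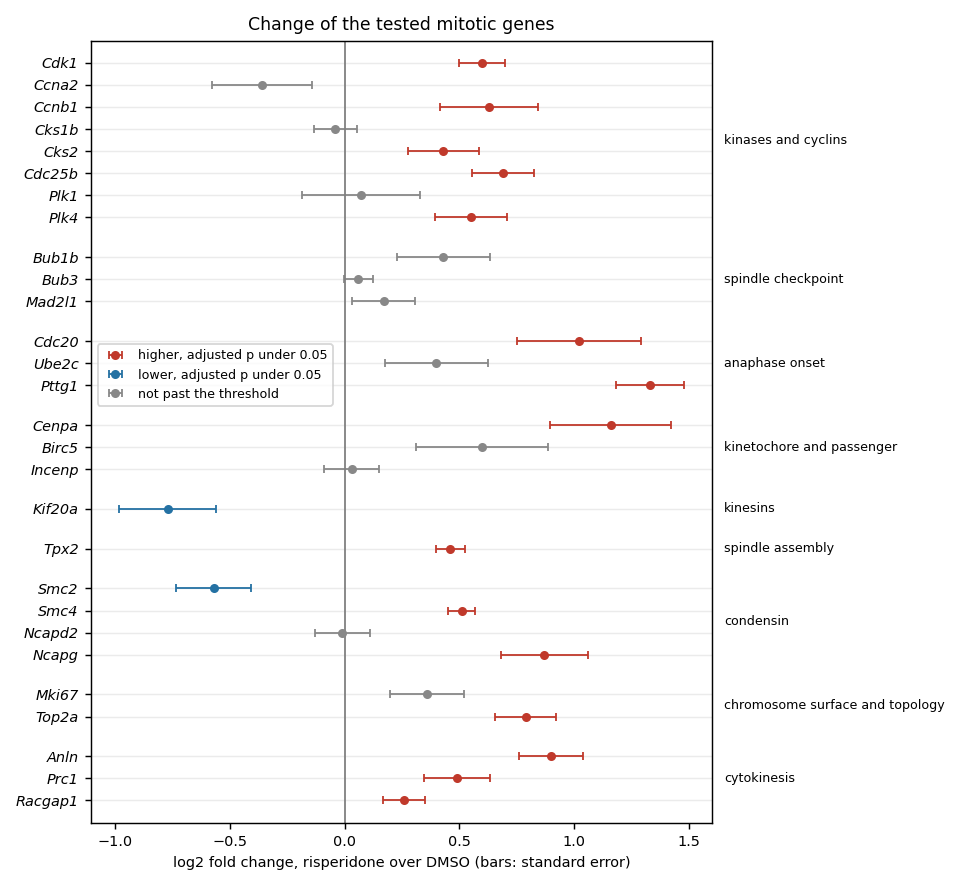
Log2 fold change, risperidone over DMSO, of the 28 tested genes by functional group, with bars for the standard error from edgeR (2 libraries per treatment). The largest rises are those of Pttg1 (1.33), Cenpa (1.16) and Cdc20 (1.02), and Kif20a (-0.77) and Smc2 (-0.57) are the 2 genes past the threshold in the other direction.

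Across the groups, Pttg1, Cenpa and Cdc20 were the 3 genes with a log2 fold change of at least 1, beside 2.61% of all genes tested, and 0 genes fell by that much, beside 3.91%. Of the 17 called genes, 10 passed in the same direction in every alternative analysis in which they were tested, the stricter fold threshold aside. These were Cdk1, Cdc25b, Pttg1, Cenpa, Tpx2, Smc2, Smc4, Ncapg, Top2a and Anln, of which Ncapg carries the limit on shared reads given above. Of the 47 genes, 8 overlap another gene of the table on the genome in RefSeq, and Kif20a and Ncapg were the 2 with counts that were not whole. Whether reads were counted by strand is not given in the sources used here, so reads of genes on opposite strands may not have been told apart.

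Other genes of cell division were set in 10 lists, written from general knowledge with earlier results of these data known. They are described as counts in the same test. These are to be read beside the 32.1% of all genes tested that were higher and the 32.2% that were lower. Of 16 tested subunits and activators of the APC/C, 6 were higher (37.5%, near the 32.1% of all genes) and 2 lower (12.5%) with a median log2 fold change of 0.11. Cdc16 (0.70) and Cdc23 (0.59), which are core subunits, had the largest rises, and Anapc16 fell by 0.47 on the log2 scale. The value of Cdc23 carries the limit on reads shared with Kif20a given above. Without DMSO replicate 1 the count of lower APC/C genes was 1. The other 8 of the 16 did not pass the test.

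Cohesin, which holds sister chromatids together until separase cuts it, had 0 of 12 tested genes higher and 4 lower by edgeR (33.3%, near the 32.2% of all genes, median -0.09), and DESeq2 gave 0 and 3. At an unadjusted p under 0.05, edgeR gave 0 higher and 5 lower. The acetyltransferase Esco1 (-0.86), the subunit Stag1 (-0.66) and the deacetylase Hdac8 (-0.37) fell. Without risperidone replicate 2, 1 cohesin gene was higher and 6 were lower. Of the other condensin subunits, all 3 tested, Ncaph2 rose (0.41) and Ncapd3 fell (-0.30), the latter not past the threshold without DMSO replicate 2. Both belong to condensin II.

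Of 18 tested genes of the kinetochore and centromere outside the 47, 2 were higher and 5 lower (median -0.09). Cenpt (-0.84), an inner kinetochore subunit, and Dsn1 (-0.82) and Pmf1 (-0.65), subunits of the MIS12 complex, fell, while the centromeric histone Cenpa rose as given above. Pmf1 did not pass without risperidone replicate 2, and the count of higher genes was 1 when either DMSO library was left out. Centriole duplication had 1 of 6 tested genes higher and 4 lower (median -0.51). Cenpj (-1.53), Cep135 (-0.97) and Cep63 (-0.52), which build or recruit the centriole, fell, beside the rise of the kinase Plk4. Cenpj had 233 and 227 counts with DMSO and 78 and 71 with risperidone.

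The list of other spindle genes and mitotic kinesins had 6 of 21 higher and 5 lower (median 0.19). Psrc1, a microtubule binding protein gene, rose by 1.57 on the log2 scale from 21 and 22 counts to 66 and 54, whereas Numa1 (-0.69), which anchors the spindle poles, and Clasp1 (-0.65), a microtubule plus end protein, fell. The count of lower genes was 2 when either DMSO library was left out and 3 without risperidone replicate 2. The controls of mitotic entry gave 3 of 10 higher and 3 lower (median 0.05). The kinases Pkmyt1 (1.35) and Wee1 (0.75), which place the inhibitory phosphates on Cdk1, rose, as did their opponent Cdc25b among the 47, and Arpp19 (-0.58), an inhibitor of the phosphatase PP2A at mitotic entry, fell.

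Other genes of cytokinesis had 6 of 11 higher and 1 lower (median 0.13), led by the kinase Rock2 (0.88), Rtkn (0.47) and Rock1 (0.29). Without DMSO replicate 2, 3 of them were higher, and the lower one was lost when either DMSO library was left out. Cell cycle transcription factors had 6 of 16 higher and 4 lower (median 0.09). Rbl1 (0.84), the p107 pocket protein of the DREAM complex, rose, while Lin9 (-0.68), a MuvB subunit, and Tfdp1 (-0.45), the E2F partner, fell. Without DMSO replicate 2 the list gave 2 higher and 2 lower. Foxm1, a factor that activates genes of mitosis, had 108 and 97 counts with DMSO and 60 and 93 with risperidone (-0.33, adjusted p = 0.208 by edgeR), so the treatments overlapped. Its value was -0.68 without risperidone replicate 2 (adjusted p = 0.00863 by edgeR) and -0.04 without risperidone replicate 1.

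DNA replication had 8 of 23 tested genes higher (34.8%) and 6 lower (26.1%) with a median of 0.17. The share higher was near the 32.1% of all genes. For mitosis, 15 of 28 were higher and 2 lower with a median of 0.45. The 2 lists were compared by these counts only, and the difference between them was not tested. Geminin (Gmnn, 1.54) and its target, the licensing factor Cdt1 (1.19), both rose, and Cdc45 (-1.08), part of the replicative helicase, fell. Gmnn had 23 and 40 counts with DMSO and 99 and 73 with risperidone. Without DMSO replicate 1, 5 replication genes were higher. Of 20 replication genes with a RefSeq promoter, 4 held a CHR, beside 28 of the 40 mitotic genes, and 13 held a CCAAT box.

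**Figure D5:**
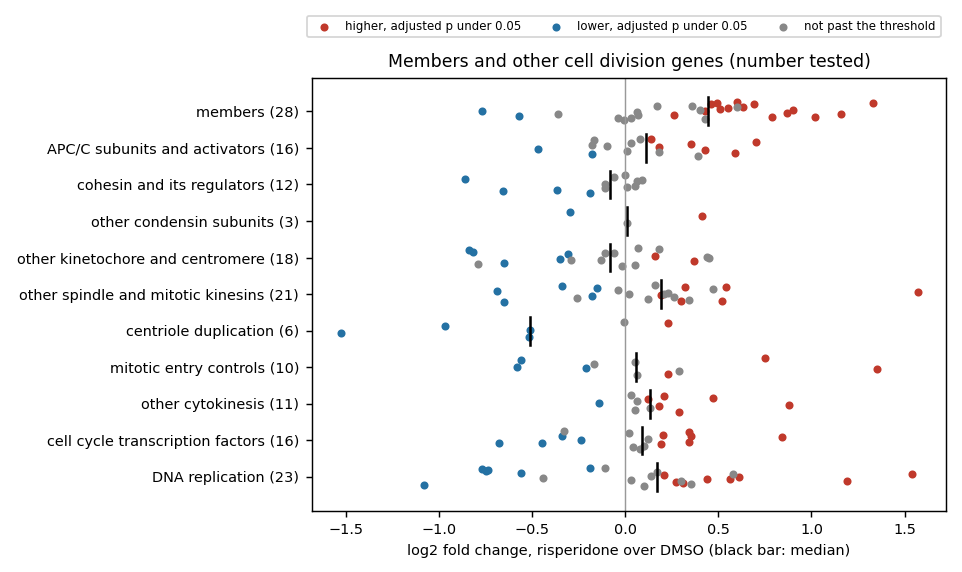
Log2 fold change, risperidone over DMSO, of each tested gene in the mitotic set and in 10 lists of other cell division genes, with the number tested in brackets, colours as in the plot of the tested genes and a black bar at the median. The mitotic set has its median at 0.45, cohesin at -0.09 and centriole duplication at -0.51.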

How the data were processed

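RNA of 4 libraries was sequenced on MGISEQ-2000. Per the study's methods, the authors removed adaptor, poly-N and low-quality reads. The submitters' processing notes name Bowtie2, RSEM, DESeq2 and GRCm38.p6, without versions. The deposited table holds, for each gene and library, FPKM and TPM values calculated by the authors and each gene's expected counts, deposited by the authors without normalization after mapping. Of these, 91.2% to 91.7% of a library's counts were exactly whole. Column names match the sample titles.

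After rounding, genes that averaged 1 FPKM or more entered the quasi-likelihood F-test of edgeR 4.0.16 under R 4.3.3 (TMM factors 0.963 to 1.03, biological coefficient of variation 0.0468), two-sided, with Benjamini-Hochberg adjustment over all genes tested. The SE was obtained from the size of the log2 fold change over the root of the F statistic. Alternatives used DESeq2 1.42.0 and limma 3.58.1, with pseudocounts of 1 and 0.1. The fits were tested on counts simulated with the same spread for all genes, and with changes only in genes above a count limit. At a log2 fold change of 0.5, edgeR recovered 88% and DESeq2 71% of the changed genes. Genes with a spread of their own or with very few counts were not covered. A count of 0 allows 3 counts, 0.183 to 0.189 CPM. Since cultures were pooled, p-values measure the spread between pools. The labels do not say what the replicate numbers share.

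The genes and lists were chosen with earlier results of these data known. Values in every library are given, in each group, for up to 4 tested genes with the largest absolute log2 fold change, for those against their group's direction and for Mki67, Top2a, Cdk1 and Ccnb1. In each pathway list, up to 3 called genes with the largest change were named. Foxm1 and the values of other genes were added after they were seen. Promoters, gene spans and synonyms are from RefSeq (GRCm38.p6), and septins, whose symbols are spelled as dates in the table, were matched by gene identifier.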

Additional observations from a re-analysis of the deposited data

How the results depend on the processing

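With 1 library left out, the lone library of a treatment was assumed to vary like the other treatment. The number of mitotic genes higher, 15, was 6 among genes of at least 5 FPKM and 3 with a log2 fold change of at least 1, and 10 to 15 when 1 library was left out (10 without DMSO replicate 1). The 2 lower became 0 at 5 FPKM, 5 with limma on log2(TPM + 1), 1 with no filter and without risperidone replicate 2, 0 with a log2 fold change of at least 1, and 1 to 3 when 1 library was left out (1 without DMSO replicate 2). At 5 FPKM or more, 9 of the 47 remained, and over all genes 2669 were higher and 2732 lower. DESeq2 gave 2639 higher and 2653 lower over all genes, and 10 higher and 2 lower among the mitotic genes. Their median log2 fold change, 0.45, was 0.26 without the filter, 0.41 at 5 FPKM, 0.35 with library size only, 0.50 with offsets for gene length, 0.29 and 0.34 with limma on log2(FPKM + 1) and log2(FPKM + 0.1), 0.18 with limma on log2(TPM + 1), 0.35 with no filter and without risperidone replicate 2, and 0.42 to 0.50 when 1 library was left out. Over all genes, 3287 higher and 3303 lower became 1536 and 5292 on log2(TPM + 1), and 267 and 401 with a log2 fold change of at least 1. The cause was not tested except where fewer genes or libraries entered.

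The replicate numbers are shared by both treatments, but the deviations of same-numbered libraries had a correlation of -0.105, which does not show that the numbers pair the libraries, and whether they mark a shared batch is not known. A replicate block gave 17 mitotic genes higher and 2 lower, with 3292 and 3321 over all genes. Crossed numbers, tried after seeing the data, gave 16 and 2, with 3474 and 3519 over all genes.

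Signs turned for genes with changes near 0. With library size only, limma on log2(FPKM + 1), log2(FPKM + 0.1) and log2(TPM + 1), the median of all genes itself moved, to -0.09, -0.08, -0.09 and -0.22, so a turned sign there says nothing of a single gene. In that order, Plk1 was at -0.02, -0.01, -0.02 and -0.11, Bub3 at -0.03, -0.03, -0.04 and -0.18, and Incenp at -0.06, -0.06, -0.07 and -0.19, and Mad2l1 was at -0.06 on log2(TPM + 1). Without risperidone replicate 2, with and without the filter, Plk1 was at -0.06 and -0.04, Incenp at -0.05 and -0.03 and Ncapd2 at 0.11 and 0.13. With 1 library left out, Cks1b ran from -0.16 to 0.08, Plk1 from -0.06 to 0.20, Incenp from -0.05 to 0.12 and Ncapd2 from -0.14 to 0.13. With offsets for gene length Ncapd2 was at 0.08. Of 457 values of single mitotic genes over the alternatives, 389 kept direction and call, 35 lost the call (Ccnb1, Cks2, Plk4, Cdc20, Kif20a, Prc1 and Racgap1), 10 gained one (Ccna2, Cks1b, Birc5 and Mki67) and 23 turned, among which Bub3 was called lower on log2(TPM + 1). Of 684 counts over functional groups and pathway lists, 126 moved, by over 1.5 times or between 0 and another count. Of 480 values of genes named from the lists, 466 kept direction and call and 14 lost it.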
